A study of Drosophila melanogaster with 6 samples.

Results

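The proteasome subunit genes of Drosophila melanogaster were followed through 6 larval brain libraries with RNAi against DMAP1. The members are all gene rows whose symbol starts with Prosalpha, Prosbeta, Rpn or Rpt followed by a number. This rule uses names only, and it found 48 of the 17490 gene rows. Of these, 32 carry nothing after the number and are called core subunits here. The other 16 carry a further T or R, the suffix used for paralogues, and are described apart. All 48 are annotated as protein coding.

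The proteasome is the protease that breaks down ubiquitin-tagged proteins. Its barrel-shaped core particle is made of alpha rings, which gate the entrance, and beta rings, some of whose subunits cut peptide bonds. A regulatory particle sits on the barrel. The base of that particle holds the Rpt ATPases, which unfold substrates, and its lid holds the deubiquitinase that removes the ubiquitin chain. The subunits are needed in fixed proportions, and in flies, as in mammals, their genes are known to be raised together when proteasome activity is blocked. In neurons the proteasome is known for its part in synapse growth and in the clearing of damaged proteins. Several fly subunits have paralogues known from the testis.

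The animals were 3rd instar larvae in which elav-Gal4, a driver used to reach neurons, drove the RNAi. The DMAP1 protein belongs to the Tip60 chromatin complex. The labels give all 6 samples this 1 genotype, name brain as the tissue and state neither sex nor the number of animals pooled. The column names divide the libraries into 3 named DMAP1RNAi103734 and 3 named DMAP1RNAi63666, and the labels do not say what these stems stand for. The 3 wild-type columns of the table match no labelled sample and were not analysed here, so no effect of the knockdown is given, and every contrast below is between the column-name series. As no label says whether the libraries came from different animals, the p-values reflect the spread among these libraries alone, and that spread may be technical.

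Library totals ran from 31518485 to 37236953 counts. DMAP1 itself stood at 11.4 to 13.3 scaled CPM in the DMAP1RNAi103734 libraries and at 7.73 to 8.41 in the DMAP1RNAi63666 series, without overlap (log2 fold change -0.62, SE 0.12, edgeR adjusted p = 0.0453). That call was lost without any 1 library other than library 2 of the DMAP1RNAi63666 series (adjusted p = 0.0774 to 0.168), and with limma-voom (0.0513), library totals only (0.0549) or a replicate block (0.0507). Scaled CPM means counts scaled to a common library total after TMM correction (CPM, TMM-scaled), and serves here to compare libraries. TPM also divides by gene length and serves to compare genes. CPM alone, as in sums over lists, leaves out the TMM correction. All 6 neuronal markers (elav, nSyb, Syt1, brp, cpx, nrv3) were detected, and together they took 5681 to 7194 CPM in the DMAP1RNAi103734 libraries and 7227 to 9917 CPM in the DMAP1RNAi63666 series. In such bulk samples, fewer cells of a type and less RNA per cell cannot be told apart.

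All 32 core subunits were expressed, and most lay within a narrow band of levels. Together they took 0.340 ± 0.0507% of all counts (SD, n = 6), with 0.333, 0.412 and 0.349% in the DMAP1RNAi103734 libraries and 0.263, 0.313 and 0.369% in the DMAP1RNAi63666 series. The median core subunit reached 176 ± 23.1 TPM (SD, n = 6), where the median of all 10211 tested genes was 30.0 ± 1.35 TPM. Relative to the core median of the same library, 25 of the 32 genes lay within a factor of 1.5. Mean levels ran from 24.8 TPM for Prosalpha1 to 298 TPM for Prosalpha2. The level of Prosalpha1 is uncertain, since reads that map to several places were not counted, as described below. Leaving Prosalpha1 aside, the other 31 genes lay between 76.9 and 298 TPM, a ratio of 3.87, and each of them was above the upper quartile of tested genes (64.5 TPM). The order of the subunits was similar from library to library, with Spearman coefficients of 0.73 to 0.98 over the 15 pairs of libraries, a description across the 32 genes only.

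**Figure D1:**
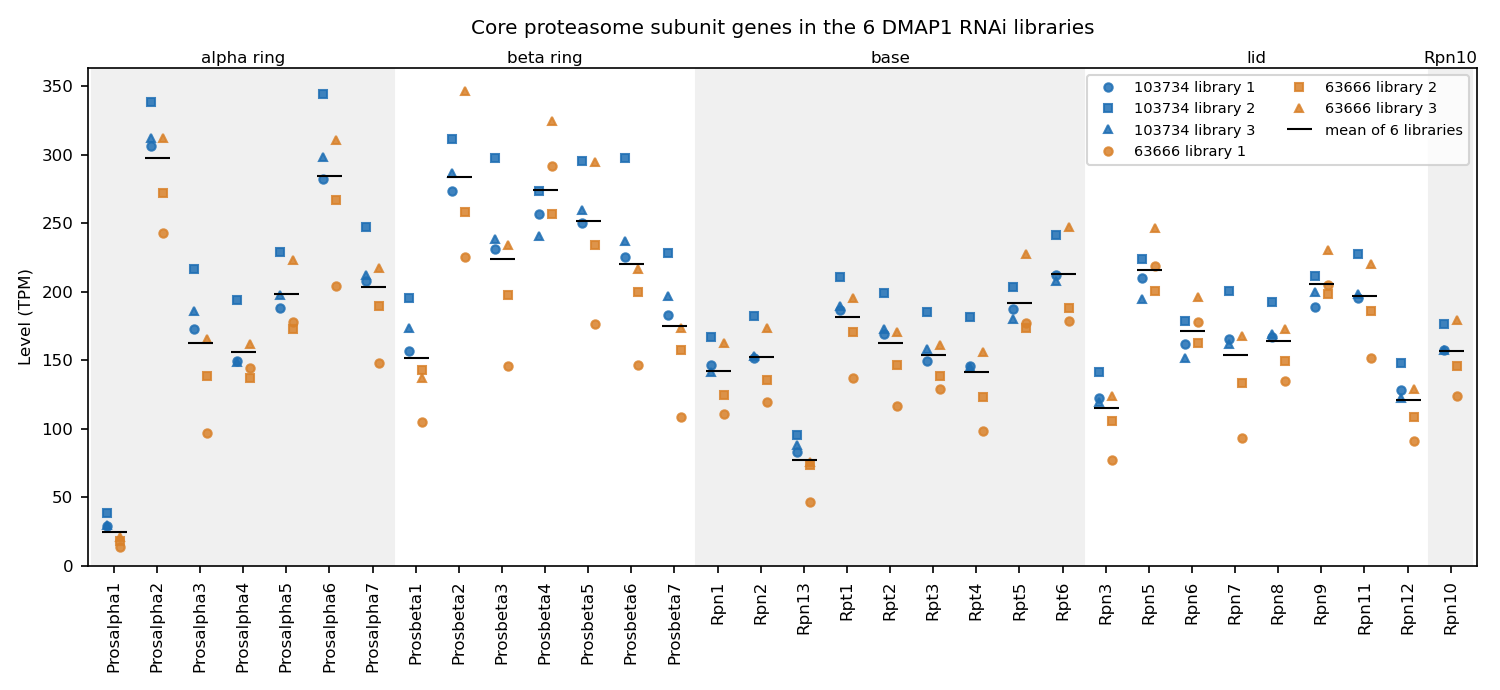
Level of each core subunit gene (vertical axis, TPM) in the 6 libraries, ordered by place in the complex, with blue points for the DMAP1RNAi103734 series, orange points for the DMAP1RNAi63666 series and a bar for the mean. Prosalpha1 at 24.8 TPM stands below the other 31 genes, which lie between 76.9 and 298 TPM, and library 1 of the DMAP1RNAi63666 series (orange circles) is often the lowest point.

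By these values, the alpha ring held both the highest and the lowest core gene. Prosalpha2 (chromosome 3R, 12431321 to 12432556 on BDGP6) reached 298 ± 33.9 TPM (SD, n = 6). Its scaled CPM was 118, 133 and 122 in the DMAP1RNAi103734 libraries and 102, 109 and 120 in the DMAP1RNAi63666 series. These ranges overlap, and the fitted log2 fold change of the DMAP1RNAi63666 over the DMAP1RNAi103734 series was -0.17 (SE 0.09, edgeR adjusted p = 0.287). Prosalpha6, second in level, reached 285 ± 47.5 TPM, with scaled CPM of 126, 158 and 135 against 99.1, 124 and 139. Library 1 of the DMAP1RNAi63666 series was lowest and library 2 of the DMAP1RNAi103734 series highest for both genes. Prosalpha3 lay at 163 ± 41.2 TPM. Its scaled CPM was 70.1, 90.2 and 76.7 in the DMAP1RNAi103734 libraries and 42.7, 58.5 and 67.4 in the other series, so the groups were apart by a small gap. Its log2 fold change was -0.49 (95% interval -0.88 to -0.10), with an edgeR adjusted p of 0.150, which does not pass 0.05.

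Prosalpha1 needs to be read together with its neighbour. Prosalpha1 (FBgn0263121, chromosome 2R, 7827303 to 7828678) and Prosalpha1R (FBgn0050382, 7830413 to 7831771) lie 1734 bases apart. They have 4 exon blocks each and summed exon lengths of 969 and 952 bases, and each overlaps a gene on the opposite strand by 17 bases. Reads that map to several places were not counted, so where these copies are alike the split between them, and their summed level, is uncertain. Prosalpha1 stood at 11.6, 15.9 and 12.2 scaled CPM in the DMAP1RNAi103734 libraries and at 5.86, 7.49 and 8.34 in the DMAP1RNAi63666 series. Every library of the second series lay below every library of the first. The log2 fold change was -0.87 (SE 0.18, 95% interval -1.27 to -0.46), the largest among the core subunits, and at an edgeR adjusted p of 0.0596 it did not pass. It passed with DESeq2 (adjusted p = 0.000832), with edgeR when no filter on low counts was used (0.0346) and with a replicate block (0.0299).

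Prosalpha1R, at 39.0 ± 8.68 TPM, was above Prosalpha1 at 24.8 ± 9.17 TPM. Its scaled CPM was 16.3, 20.1 and 16.7 in the DMAP1RNAi103734 libraries and 10.2, 14.9 and 16.9 in the DMAP1RNAi63666 series, which overlap (log2 fold change -0.34, SE 0.19, edgeR adjusted p = 0.290). Prosalpha1 supplied 41.6, 44.1 and 42.3% of the counts of the pair in the DMAP1RNAi103734 libraries and 36.6, 33.4 and 33.1% in the other series, again without overlap. With the counts of the pair summed, the level was 63.7 ± 17.2 TPM, still below every other alpha ring gene, and the log2 fold change was -0.54 (SE 0.17, edgeR adjusted p = 0.136).

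The beta ring had the highest median level of the complex, at 224 ± 49.2 TPM (SD, n = 6) over its 7 genes. That median was above the medians of the base (154 ± 23.1 TPM, 9 genes) and of the lid (169 ± 19.2 TPM, 8 genes) in 6 of 6 libraries. It was above that of the alpha ring (192 ± 29.6 TPM, 7 genes) in 5 of 6, the exception being library 1 of the DMAP1RNAi63666 series with 146 against 148 TPM. Among the catalytic subunits, Prosbeta2, which carries the trypsin-like activity, stood at 284 ± 42.3 TPM. Prosbeta5, the chymotrypsin-like subunit, stood at 252 ± 44.1 TPM and Prosbeta1, the caspase-like subunit, at 152 ± 31.3 TPM. The order Prosbeta2, Prosbeta5, Prosbeta1 held by their means and within every library, while the SDs of the first and second, taken over libraries, overlap.

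The 3 catalytic genes had fitted differences between the series from -0.41 to -0.04 log2 units, and none passed with edgeR. Prosbeta1 had scaled CPM of 55.8, 71.1 and 62.6 in the DMAP1RNAi103734 libraries and 40.5, 52.9 and 48.8 in the other series. These groups do not overlap, and the log2 fold change was -0.41 (95% interval -0.71 to -0.12, edgeR adjusted p = 0.131). It passed only with DESeq2, at an adjusted p of 0.0487. Prosbeta5 had 119, 144 and 125 against 91.3, 116 and 140, with overlap and a log2 fold change of -0.16 (95% interval -0.51 to 0.20, edgeR adjusted p = 0.540). Prosbeta2 had 118, 138 and 126 against 106, 116 and 150, with a log2 fold change of -0.04 (95% interval -0.35 to 0.28, edgeR adjusted p = 0.892). Whether these 3 fold changes differ from each other was not tested.

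Among the structural beta subunits, Prosbeta4 stood out by its direction. It reached 274 ± 30.4 TPM, with scaled CPM of 87.4, 95.5 and 83.0 in the DMAP1RNAi103734 libraries and 108, 91.1 and 111 in the DMAP1RNAi63666 series. Its log2 fold change of 0.22 (95% interval -0.02 to 0.46, edgeR adjusted p = 0.227) was the highest among core subunits and did not pass. Prosbeta7 had 92.6, 119 and 101 against 59.9, 83.0 and 88.4, a log2 fold change of -0.43 (SE 0.16, edgeR adjusted p = 0.158). Its libraries were apart, with the DMAP1RNAi63666 series lower, whereas those of Prosbeta4 overlapped.

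In the base, the 6 Rpt ATPases were close to each other, from 142 TPM for Rpt4 to 213 TPM for Rpt6. Their log2 fold changes ran from -0.29 for Rpt4 to 0.05 for Rpt5, and the lowest edgeR adjusted p among them was 0.210. The scaffold subunits Rpn1 and Rpn2, which have the longest summed exons among the core genes, stood at 142 ± 21.9 and 153 ± 23.2 TPM. Rpn13, a ubiquitin receptor, was the lowest base subunit at 76.9 ± 17.0 TPM. Its scaled CPM was 57.7, 68.3 and 62.4 in the DMAP1RNAi103734 libraries and 35.2, 53.2 and 52.8 in the other series, apart by a small gap (log2 fold change -0.42, SE 0.16, edgeR adjusted p = 0.169). Rpn10, the other ubiquitin receptor, stood at 157 ± 20.4 TPM, with 93.3, 107 and 94.8 scaled CPM against 80.0, 90.1 and 107. These overlap, and the log2 fold change was -0.09 (95% interval -0.37 to 0.18, edgeR adjusted p = 0.649).

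The lid ranged from Rpn3 at 115 ± 21.8 TPM to Rpn5 at 216 ± 18.6 TPM. Rpn11, the deubiquitinase, lay at 197 ± 27.2 TPM, with scaled CPM of 98.5, 118 and 102 against 82.9, 97.8 and 111 (log2 fold change -0.12, SE 0.13, edgeR adjusted p = 0.564). Rpn3 had 93.4, 111 and 92.6 against 64.2, 84.0 and 95.0 (log2 fold change -0.29, SE 0.15, edgeR adjusted p = 0.264). Both overlapped between the series. Rpn5 and Rpn6, scaffold subunits of the lid, had higher means in the DMAP1RNAi63666 series. Rpn5 stood at 166, 182 and 157 scaled CPM against 188, 165 and 196, and Rpn6 at 131, 149 and 125 against 157, 138 and 160. The log2 fold changes were 0.12 (SE 0.10, edgeR adjusted p = 0.462) and 0.17 (SE 0.10, edgeR adjusted p = 0.327), and both pairs of groups overlapped.

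Across the complex, no core subunit passed between the series. With edgeR, 0 of the 32 had an adjusted p under 0.05, where 1.55% of the 10211 tested genes did, 0.676% lower and 0.872% higher in the DMAP1RNAi63666 series. At an unadjusted p under 0.05 there were 7 (21.9%), all lower in the DMAP1RNAi63666 series, against a background of 24.6% in either direction and 11.9% lower. DESeq2 called 2 of the 32, Prosalpha1 and Prosbeta1, both lower, where it called 9.39% of genes in either direction and 4.67% lower. Prosalpha1 was also the 1 core gene called by edgeR with no filter on low counts and with the replicate block, where 1.43% and 2.72% of genes were called. Groups that did not overlap, with the DMAP1RNAi63666 series lower, were seen for 6 core genes (18.8%), against 16.5% of all tested genes. No core gene had groups apart with the DMAP1RNAi63666 series higher, against 17.0% of tested genes. The share of genes apart and lower was near the background. The share at an unadjusted p was above the background for lower genes and below it in either direction. That number, in either direction, was 3 without library 2 of the DMAP1RNAi103734 series. It was 2 when library 1 of the DMAP1RNAi63666 series was left out as well, and 16 without library 3 of the DMAP1RNAi63666 series alone. The share of all tested genes at an unadjusted p in these fits is not given here, so nothing about the subunits is read from these counts.

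The fitted values leaned to 1 side without single genes passing. The log2 fold change was below 0 for 27 of the 32 core genes, against 49.9% of tested genes, and its median was -0.17, a fold of 0.888, against 0.00 over all tested genes. By place in the complex the median was -0.21 in the alpha ring (7 of 7 below 0), -0.38 in the beta ring (6 of 7), -0.16 in the base (8 of 9) and -0.15 in the lid (5 of 8). The 5 genes above 0 were Prosbeta4, Rpn5, Rpn6, Rpn9 and Rpt5. The 95% intervals of the 32 genes reached from -1.27 to 0.46, and only that of Prosalpha1 included a 2-fold difference. The lean to 1 side was lost without library 2 of the DMAP1RNAi103734 series and library 1 of the DMAP1RNAi63666 series. Most core genes were highest in the first of these and lowest in the second, and both were left out after seeing this. The median was therefore bound to move toward 0, so this fit cannot decide whether the series differ. With both left out, 17 genes lay below 0 and 15 above, and the median was -0.02. Without the first alone the median was -0.10 and without the second alone -0.12, while without library 3 of the DMAP1RNAi63666 series it was -0.29.

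**Figure D2:**
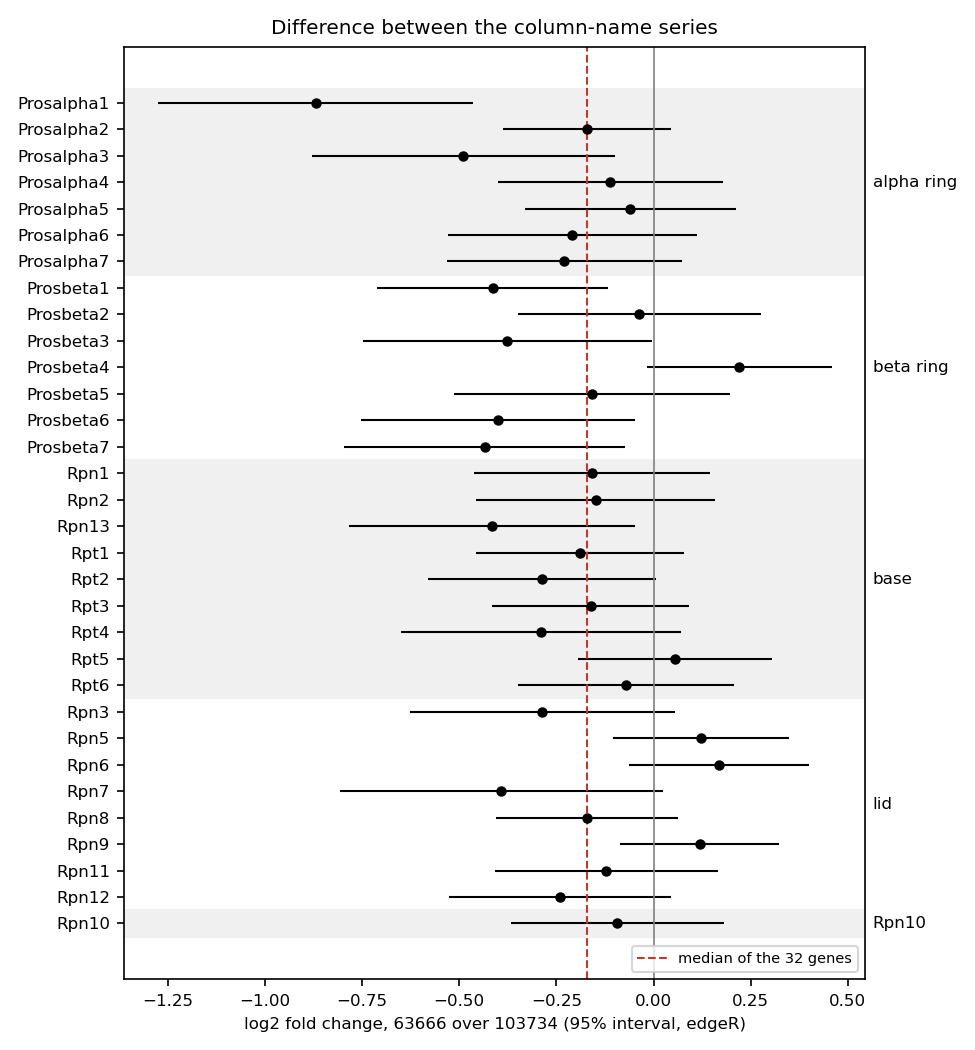
Fitted log2 fold change of the DMAP1RNAi63666 over the DMAP1RNAi103734 series for each core gene (horizontal axis), with its 95% interval from edgeR, ordered by place in the complex. The dashed line is the median of -0.17, and the 5 genes right of 0 are Prosbeta4, Rpt5, Rpn5, Rpn6 and Rpn9.

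The larger differences lay between single libraries, where most core subunits moved together. Library 2 of the DMAP1RNAi103734 series was the highest for 25 of the 32 genes, against 23.4% of tested genes. Library 1 of the DMAP1RNAi63666 series was the lowest for 25 of 32, against 32.9%, and 23 of the 32 genes (71.9%) had both extremes there, against 15.6%. The median deviation of the core genes from their own mean was 0.27 log2 units in library 2 of the DMAP1RNAi103734 series and -0.30 in library 1 of the DMAP1RNAi63666 series. In the other libraries it was 0.00, 0.03, -0.10 and 0.10, and for all tested genes it was between -0.01 and 0.01 in every library. Genes that did not follow were Prosbeta4, Rpn5, Rpn6 and Rpn9, which lay above their mean in library 1 of the DMAP1RNAi63666 series.

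**Figure D3:**
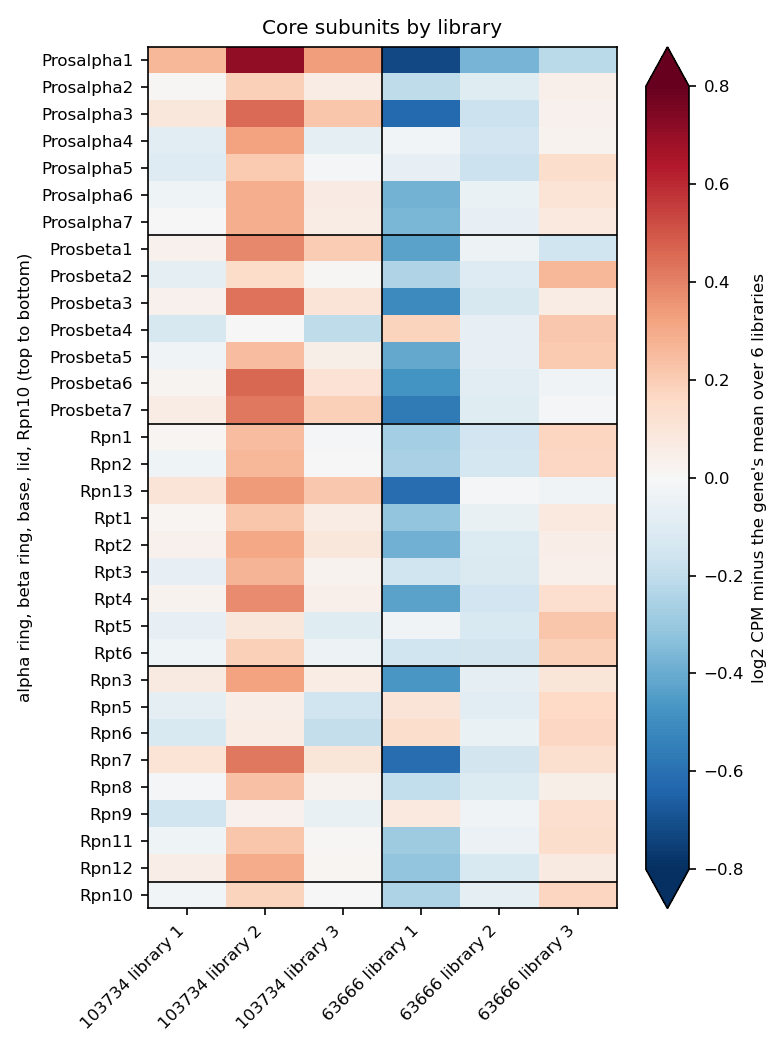
Deviation of each core gene from its own mean over the 6 libraries (colour, log2 units of scaled CPM), with the complex from top to bottom and the libraries from left to right. Library 2 of the DMAP1RNAi103734 series is red and library 1 of the DMAP1RNAi63666 series blue for most genes, while Prosbeta4, Rpn5, Rpn6 and Rpn9 are pale red in the latter.

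Other measures moved with the same libraries. Transcripts of the mitochondrial genome took 6.98, 6.88 and 7.10% of counts in the DMAP1RNAi103734 libraries and 10.9, 8.85 and 8.18% in the other series, so the series were apart, with the lowest share where most core genes were highest and the highest share where most were lowest. Neuronal markers had their lowest sum in library 2 of the DMAP1RNAi103734 series (5681 CPM) and their highest in library 1 of the DMAP1RNAi63666 series (9917 CPM), the reverse of the core genes. The other 4 libraries lay between 6867 and 7577 CPM. Cytosolic ribosomal protein genes took 76473 CPM in the first of these libraries and 46161 CPM in the second, also their highest and lowest sums. Sums of mitochondrial ribosomal protein genes (1556 and 1122 CPM) and aminoacyl-tRNA synthetase genes (2552 and 1955 CPM) had these extremes too. So had the chaperone (6282 and 3250 CPM) and CncC target (1647 and 1029 CPM) lists given below. All these sums are without the TMM correction, whose factor was 1.04 in library 2 of the DMAP1RNAi103734 series and 0.915 in library 1 of the DMAP1RNAi63666 series. The ubiquitin and delivery list had these extremes only without that correction (5633 and 4831 CPM), so they are not read as shared with the core genes. The autophagy list and the assembly factors and regulators did not have both extremes there. The 6 fat body markers (Fbp1, Fbp2, Lsp1alpha, Lsp1beta, Lsp1gamma, Lsp2), none of which was at 0 over all libraries, summed to 557 CPM in library 2 of the DMAP1RNAi103734 series, against 43.5 and 79.9 in the same series and 34.4 to 146 in the other. Sums of the 5 glial markers were closer, at 2864 to 3043 CPM and 2939 to 3175 CPM in the series, and those of the 5 neuroblast markers were 395 to 411 and 347 to 394. The small gap between the series in the neuroblast sums is present only without the TMM correction and is not read as a difference. The 4 hemocyte markers ranged from 22.9 to 191 CPM and the 4 muscle markers matched from 123 to 446 CPM over all libraries. Library 2 of the DMAP1RNAi103734 series had 36.4 CPM of the hemocyte and 356 CPM of the muscle markers. Library 1 of the DMAP1RNAi63666 series had 107 and 123 CPM. The part of these cell types, or of the mitochondrial share, in the core subunit values was not tested.

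Exon length moved little with the fold change over all tested genes, with a Spearman coefficient of 0.05, and more over the 32 core genes, where it was 0.30. Both are descriptions across genes, which are not independent. The median log2 fold change was -0.31 for the 10 core genes under 1000 bases and -0.16 for the 20 between 1000 and 2000 bases. Over all tested genes of these lengths it was 0.02 and -0.04. Of the core genes, 13 overlap an exon of a gene on the opposite strand, by at most 264 bases, and none overlaps a gene on its own strand, and the counting used strand.

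Levels relative to the rest of the complex depend on the core median, which itself varied between libraries. Taken relative to the core median of the same library in TPM, Prosbeta4 stood at 1.45, 1.32 and 1.31 in the DMAP1RNAi103734 libraries and at 2.08, 1.61 and 1.74 in the other series. Rpn9 stood at 1.06, 1.02 and 1.09 against 1.46, 1.24 and 1.23, and Rpn6 at 0.909, 0.864 and 0.828 against 1.27, 1.02 and 1.05. All 3 were without overlap. In all, 6 core genes (18.8%) were higher without overlap on this relative scale, namely Prosbeta2, Prosbeta4, Rpn5, Rpn6, Rpn9 and Rpt5, against 26.4% of all tested genes. The 7 that were lower without overlap (21.9%) were Prosalpha1, Prosalpha3, Prosbeta3, Prosbeta6, Prosbeta7, Rpn13 and Rpt2, against 5.01%. Nothing is read from these shares, since the core genes are divided by their own median and the other genes are not. The core median was itself 178, 207 and 183 TPM in the DMAP1RNAi103734 libraries and 140.5, 160.0 and 187 TPM in the other. At the other end, the ratio of Rpn8, a partner of Rpn11 in the lid, was 0.940, 0.930 and 0.922 against 0.961, 0.934 and 0.924, and its SD over the 6 libraries was 0.0141.

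The paralogues were nearly silent, apart from 3 genes. Of the 16, 13 had at most 25 counts over all 6 libraries, and 90 counts together. Prosalpha6T, Prosbeta2R1 and Prosbeta5R1 had no count, which allows up to 0.0145 CPM by a limit of 3 counts over the 6 pooled libraries (0.0179 CPM by the 95% exact Clopper-Pearson interval). Prosbeta4R1 had the most of the 13, with 25 counts in 6 libraries, or 0.121 CPM (95% exact Clopper-Pearson interval 0.0784 to 0.179). Prosbeta2R2 followed with 21 counts and Rpn12R with 13. By TPM none of these 13 exceeded 0.13% of the core gene with the same number. Intervals and limits cover counting error only.

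Rpt3R was present in every library. The gene (FBgn0037742, chromosome 3R, 9754735 to 9756510) stood at 10.4, 11.6 and 8.64 scaled CPM in the DMAP1RNAi103734 libraries and at 13.1, 10.2 and 12.03 in the DMAP1RNAi63666 series. These overlap (log2 fold change 0.20, 95% interval -0.15 to 0.55, edgeR adjusted p = 0.428). At 17.6 ± 2.29 TPM it reached 11.5% of Rpt3. Rpt6R (chromosome 3R, 30582198 to 30583697) was lower still, at 1.76 ± 0.743 TPM, or 0.829% of Rpt6. Its scaled CPM was 1.02, 0.730 and 0.893 against 2.01, 0.665 and 1.27, with overlap (log2 fold change 0.57, SE 0.42, edgeR adjusted p = 0.415). The third is Prosalpha1R, given above with its neighbour.

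Markers of germline and testis bear on these genes. Of the 9 matched, dj was at 0 and aly and comr had 6 and 8 counts over all libraries. The 9 summed to 36.9 to 48.5 CPM in the DMAP1RNAi103734 libraries and 48.3 to 70.1 CPM in the other, of which the tTAF gene can was the most abundant at 23.8 ± 8.62 TPM. Of the 9, 6 were tested and 0 passed with edgeR, against 1.55% of tested genes. At an unadjusted p under 0.05 there were 2 (33.3%), against 24.6%. Their median log2 fold change was 0.25, and 1 of the 6 lay below 0, against 49.9% of tested genes. The part of germline cells in the values of Rpt3R and Rpt6R was not tested.

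**Figure D4:**
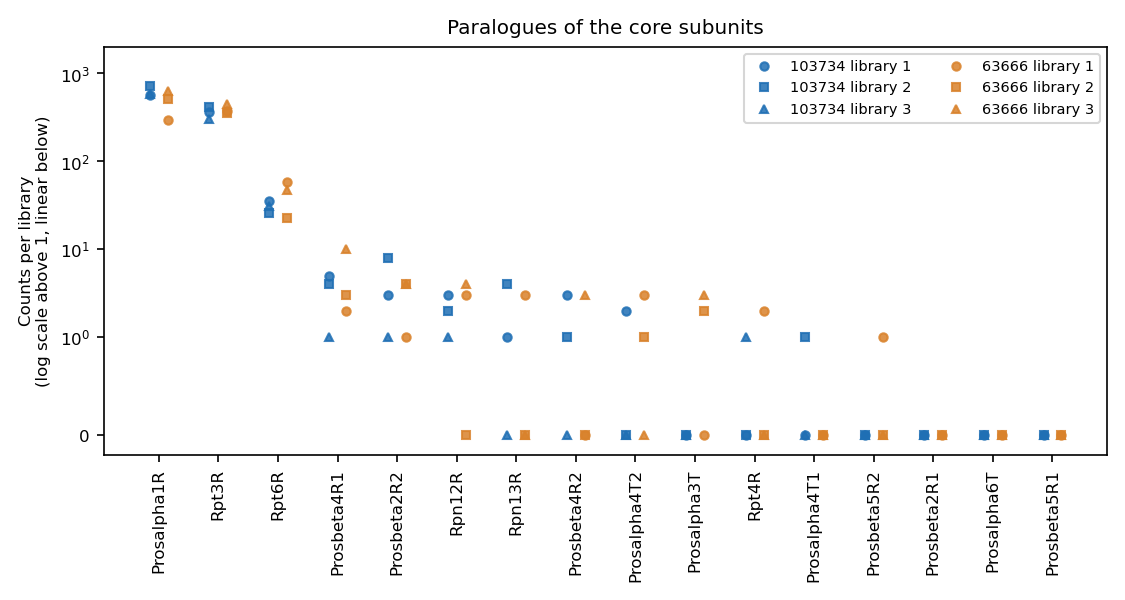
Counts of the 16 paralogues in each library (vertical axis, log scale above 1 count and linear below), ordered by their total. Prosalpha1R, Rpt3R and Rpt6R stand above 20 counts in every library, and the other 13 have at most 10 counts in any library.

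Genes that act with the proteasome gave a single call among 13 (7.69%) in the list of assembly factors and regulators, against 1.55% of tested genes. Pomp, the maturation factor that helps the beta rings assemble, was lower in the DMAP1RNAi63666 series. Its scaled CPM was 77.1, 84.8 and 78.3 in the DMAP1RNAi103734 libraries and 59.7, 52.2 and 53.4 in the other series, well apart. The log2 fold change was -0.54 (SE 0.09, 95% interval -0.75 to -0.33, edgeR adjusted p = 0.0278). Pomp was lowest in library 2 of the DMAP1RNAi63666 series, and without both libraries at the extremes its log2 fold change was -0.56 (edgeR adjusted p = 0.0309). Leaving out library 3 of the DMAP1RNAi63666 series (adjusted p = 0.0922) or any of the DMAP1RNAi103734 libraries (0.107 to 0.132) ended the call. Pomp (chromosome 2L, 20787656 to 20789098) overlaps vari on the opposite strand by 437 bases.

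The other 12 genes of that list did not pass, and the list's median log2 fold change was 0.03. REG, an activator that caps the core particle in the nucleus, was the most abundant at 290 ± 17.9 TPM (log2 fold change 0.16, SE 0.09, edgeR adjusted p = 0.318). Sem1, a small lid subunit outside the naming rule, followed at 269 ± 21.8 TPM (0.05, SE 0.09, adjusted p = 0.763). Usp14, a deubiquitinase that binds the proteasome, had the highest fold change at 0.29 (SE 0.12, adjusted p = 0.177). The transcription factor gene cnc, whose product is known to raise proteasome genes under proteasome inhibition, stood at 35.7 ± 2.88 TPM with a log2 fold change of -0.12 (SE 0.08, edgeR adjusted p = 0.397).

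Of 14 matched genes for ubiquitin and delivery to the proteasome, 0 passed with edgeR, against 1.55% of tested genes, and 5 (35.7%) had an unadjusted p under 0.05, against 24.6%. Their median log2 fold change was -0.02. RpS27A and RpL40, which encode ubiquitin fused to a ribosomal protein, were the most abundant at 6040 ± 276 and 3185 ± 582 TPM. Across this list the ubiquitin-conjugating enzyme gene eff had the highest log2 fold change (0.43, SE 0.13, edgeR adjusted p = 0.131) and p47, a cofactor of the segregase that unfolds ubiquitinated proteins, the lowest (-0.57, SE 0.15, adjusted p = 0.106).

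In the list of genes known as targets of the cnc isoform CncC, GstE1 passed and was higher in the DMAP1RNAi63666 series, with scaled CPM of 28.8, 30.9 and 29.6 against 53.8, 48.3 and 57.1 (log2 fold change 0.83, SE 0.09, edgeR adjusted p = 0.00385). The other 10 had values below 0, down to -0.81 for GstD2 (SE 0.30, adjusted p = 0.159), none of them past the threshold, and the list's median was -0.35. The 1 call among these 11 genes was 9.09%, against 1.55% of tested genes. In all, 7 of the 11 (63.6%) had an unadjusted p under 0.05, against 24.6% of tested genes. Prx2 and GstD1, its most abundant members, stood at 623 ± 65.3 and 445 ± 115 TPM. Among 17 autophagy genes 0 passed with edgeR, 4 (23.5%) had an unadjusted p under 0.05, against 24.6% of tested genes, and the median was 0.01. Atg8a, which coats autophagosomes, and ref(2)P, a receptor for ubiquitinated cargo, led the list at 354 ± 17.3 and 122 ± 11.02 TPM. Its extremes were Atg12 (0.38, SE 0.11, adjusted p = 0.119) and Atg14 (-0.53, SE 0.17, adjusted p = 0.140).

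Among 17 chaperone genes matched, 4 passed (23.5%, against 0.676% of tested genes called lower), all lower in the DMAP1RNAi63666 series and all copies of Hsp70 whose reads cannot be assigned with certainty (Hsp70Aa -3.32, Hsp70Ab -2.81, Hsp70Ba -1.40 and Hsp70Bb -1.72, edgeR adjusted p = 0.00147 to 0.0424). Hsp70Ba no longer passed when any 1 library other than library 1 of the DMAP1RNAi63666 series was left out (0.0524 to 0.168). The 7 chaperonin genes matched, which encode subunits of another large complex, had fold changes from -0.46 to -0.01 and none passed. Hsc70-4 and Hsp83, the most abundant chaperones, stood at 1984 ± 489 and 894 ± 357 TPM with log2 fold changes of -0.49 (SE 0.19, adjusted p = 0.165) and 0.55 (SE 0.27, adjusted p = 0.244).

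Beside other large complexes, the median of -0.17 for the core proteasome lay between those of 81 tested cytosolic ribosomal protein genes (-0.51) and 70 tested mitochondrial ribosomal protein genes (-0.10). For 30 aminoacyl-tRNA synthetase genes it was -0.01. None of these genes passed with edgeR, against 1.55% of tested genes. At an unadjusted p under 0.05 there were 56 (69.1%), 18 (25.7%) and 12 (40.0%), against 24.6% of tested genes. Differences between these medians were not tested.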

How the data were processed

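Polyadenylated RNA of 6 brain samples was sequenced by the authors. The deposited values are raw counts, by gene, of paired reads. FeatureCounts 1.6.5 made them, per the file headers, with strand option 2, a minimum overlap of 10 bases and the BDGP6 annotation of release 84. Alignment settings are not given here. The deposited gene length, in bases, entered TPM.

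Symbols came from the gene name table, which matched 17215 of 17490 identifiers, and all 48 members were matched. Of the listed genes, TER94, CCT8, wupA, vas and nos were not matched, and Trxr1 and Prx2 were each listed under a pair of symbols. The 3 columns of per-sample values that match no labelled sample were not used. Each of the 6 column names shows the group without identifying a labelled sample. All pairs of libraries differed beyond sampling noise (lowest chi-square per degree of freedom 22.9).

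The DMAP1RNAi63666 series was tested against the DMAP1RNAi103734 series with the quasi-likelihood test of edgeR 4.0.16 (TMM factors 0.915 to 1.04), over 10211 genes kept by its filter with a minimum count of 10. Adjusted p-values are Benjamini-Hochberg over all tested genes, with a threshold of 0.05. Alternatives were DESeq2 1.42.0, limma-voom (limma 3.58.1), other scalings, no filter, a replicate block and leaving out each library. Summing Prosalpha1 with Prosalpha1R, and leaving out both libraries at the extremes, were added after seeing the data. On simulated counts for this comparison (10211 genes), 88% of genes changed by 1 log2 unit were recovered, with 8 false calls. The simulation gave every gene the same spread (coefficient of variation 15.2%) and no deviation shared by the genes of a library. The real libraries had such shared deviations, so 88% is not the recovery to expect in these data.

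The members and lists were chosen with earlier results of these data known. Genes given with values in each library are the catalytic subunits, Rpn10, Rpn11 and Rpn13, the 3 core genes of highest and lowest TPM and of highest and lowest fold change, and paralogues with a mean of at least 10 counts. From each other list, called genes, the 2 most abundant and those with the extreme fold changes are named. Rpn1, Rpn2, Rpn8, Rpn9, Rpt4 to Rpt6, cnc and DMAP1 were named outside this rule.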

Additional observations from a re-analysis of the deposited data

How the results depend on the processing

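The number of core subunits called was 0 with edgeR, 2 with DESeq2, 1 with no filter on low counts and 1 with the replicate block by column number, and 0 under every other alternative. The count over all genes was 158, and it was 959 with DESeq2, 278 with the replicate block, 69 to 457 when 1 library was left out and 94 without both libraries at the extremes, the last an alternative chosen after seeing the data. The median log2 fold change of the core subunits was -0.29 to -0.10 when 1 library was left out, -0.24 with library totals only (all tested genes -0.07) and -0.02 without both libraries at the extremes. Deviations of same-numbered columns from their series means had correlations of 0.22, -0.20 and -0.24. With 3 libraries per series these values cannot decide whether the numbers pair the libraries. The numbers were not taken to pair them, and the block was kept as an alternative. Not divided by gene length, the level of the median core subunit was 101 CPM in place of 176 TPM. Of the 32 core genes, 10 turned sign without both libraries at the extremes, 4 without library 2 of the DMAP1RNAi103734 series, 2, 1 and 1 without libraries 2, 1 and 3 of the DMAP1RNAi63666 series, 1 with library totals only and 0 under each other alternative. Among the genes given with values in each library, signs turned for Prosbeta2 without library 2 of the DMAP1RNAi103734 series (0.024) and without library 1 (0.058) or 2 (0.0078) of the DMAP1RNAi63666 series. Without both libraries at the extremes they turned for Prosalpha6 (0.0080), Prosbeta2 (0.12), Prosbeta5 (0.065), Rpn10 (0.061) and Rpn11 (0.061). None of these values passed the threshold, and the cause was not tested. At these depths 1 count equals 0.0269 to 0.0317 CPM, which limits the paralogues only.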
